A study of Mus musculus with 24 samples.

Results

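This report describes 45 genes of amino acid catabolism and the methionine cycle in mouse liver. They were chosen by gene name from the 54733 genes listed for each library, with all 24 libraries of the data set in use. No cut-off on a measured value was applied, but earlier results of these data were known when the genes were chosen. Tests covered 11244 genes whose average over the libraries reached 1 FPKM (fragments per kilobase of transcript, scaled to a fixed number of mapped fragments), and all 45 were among them. The libraries came from poly(A)-tailed RNA of livers of male C57BL/6 mice, either wild type (WT) or mutant with both RREs, the binding elements of REV-ERB and ROR, deleted from the 5'-UTR of *Bmal1* (ΔRRE). Livers were taken at circadian time (CT) 2, 6, 10, 14, 18 and 22, with 2 libraries per genotype and time point. By the study's methods the mice had free access to chow, the deletion was made by CRISPR-Cas9 in embryos and is thus carried by every tissue, and a single mutant line was used unless stated otherwise. Those methods put tissue collection in constant darkness, with CT as projected time, and give mouse age only as a range in weeks for all tissues. The labels give no age. They number the libraries of a group without tying each to its own mouse, so the p-values measure the spread between these libraries, which may in part be technical. The genotypes were compared to see whether these genes keep their daily pattern and level where the study reports loss of the *Bmal1* mRNA rhythm.

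The liver is the main site where amino acids that are not needed for protein synthesis are broken down. Each amino acid has its own route: tryptophan passes through the kynurenine pathway, tyrosine through homogentisate, histidine through urocanate to formiminoglutamate, and glycine through the mitochondrial glycine cleavage system. In the methionine cycle, methionine is activated to S-adenosylmethionine, used as methyl donor, and regenerated from homocysteine by remethylation or drained from the cycle by transsulfuration to cysteine. Hepatocytes near the portal vein and near the central vein differ in these functions, and many of the enzymes respond to feeding, glucagon and glucocorticoids.

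The 45 genes were abundant liver transcripts. Together they made up 1.39%, 1.74% and 2.26% of the summed FPKM of a library in WT and 1.48%, 2.01% and 2.50% in ΔRRE (lowest, median and highest library). Mean levels over all libraries, which FPKM gives per transcript length, ran from 9.01 FPKM for *Sdsl*, a serine dehydratase-like gene, to 1392 FPKM for *Hpd*, the dioxygenase that acts on 4-hydroxyphenylpyruvate in tyrosine breakdown. Next to *Hpd* stood genes of the methionine cycle. *Bhmt*, which remethylates homocysteine with betaine, had a mean of 1332 FPKM, and *Gnmt*, the glycine N-methyltransferase that consumes S-adenosylmethionine, had 1273 FPKM. *Mat1a*, the liver enzyme that makes S-adenosylmethionine, followed with 788 FPKM and *Ahcy*, which hydrolyses S-adenosylhomocysteine, with 642 FPKM. The 7 genes of branched-chain amino acid breakdown were lower, with means from 13.8 to 105 FPKM.

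*Bmal1* (*Arntl* in the files) matched the labels: its fitted amplitude was 2.57 on the log2 scale in WT and 0.29 ± 0.092 in ΔRRE. The ΔRRE wave did not pass the adjusted test (adjusted p = 0.156, limma), though it met the study's looser criteria as applied below. Hepatocyte markers were high in every library (*Alb* at a mean of 27420 FPKM). All 5 lymphocyte markers had means below 1 FPKM. Of the ΔRRE libraries, replicate 1 of CT10 and replicate 1 of CT14 stood apart in the summed FPKM of 5 erythroid markers, with 4322 and 4451 FPKM, while the 12 WT libraries ranged from 466 to 1537 FPKM. Of 6 periportal markers, 2 are among the genes described here (*Sds* and *Hal*), and *Gls2* is among the further pathway genes tested below. Without *Sds* and *Hal*, the sum of the other 4 was 1127 FPKM in ΔRRE replicate 1 of CT10, the highest of all libraries. It was 926 FPKM in ΔRRE replicate 1 of CT14, within the WT range of 725 to 1046 FPKM. Replicates also differed for the genes described here. Replicate 1 was the higher of the pair for 43 of 45 genes in WT at CT18 (32.3% of all genes) and 41 at CT2 (49.35%). In ΔRRE it was the higher for 36 at CT10 (43.25% of all genes) and 34 at CT14 (56.98%), but for 9 at CT6 (51.8%). In bulk tissue, fewer cells of one type and less RNA per cell cannot be told apart.

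Of the 45 genes, 15 (33.3%) had a daily rhythm when both genotypes were tested together, with 18.7% called over all genes tested. Here a cosine wave with a period of 24 h was fitted to log2(FPKM + 0.1) in each genotype, and the waves of both were tested jointly with limma at an adjusted p under 0.05. The rhythmic genes were *Gldc*, *Amt* and *Shmt1* of serine and glycine metabolism, *Hal* and *Amdhd1* of histidine breakdown, *Kynu*, *Acmsd* and *Tdo2* of the kynurenine pathway, *Bhmt*, *Cbs* and *Ahcy* of the methionine cycle, *Cdo1* of cysteine oxidation, *Agxt* of glyoxylate removal, and the aminotransferases *Oat* and *Gpt2*. None of the 3 tyrosine genes, the 7 branched-chain genes, the 2 genes of betaine-derived methyl group oxidation or the lysine gene *Aass* was called. For 12 of the 15 genes, the common peak of both genotypes fell between CT20 and CT8. That window runs from the late subjective night into the subjective day, and *Tdo2*, *Gpt2* and *Ahcy* peaked outside it. It was set after the values were seen, and many of all rhythmic genes also peaked in it, as the shares by 4 h show. By windows of 4 h, 4 genes peaked from CT0 to CT4 (4.14% of all genes), 5 from CT4 to CT8 (4.27%), 1 each from CT8 to CT12 (2.92%), CT12 to CT16 (2.47%) and CT16 to CT20 (2.09%), and 3 from CT20 to CT24 (2.85%). Split at CT6 and CT18, 10 peaked in the window around CT0 (9.97% of all genes) and 5 in the window around CT12 (8.77%). When the genotypes were tested apart, 9 genes were rhythmic in WT (10.3% called over all genes) and 6 in ΔRRE (4.57% over all genes). The 6 genes called in ΔRRE, *Amt*, *Gldc*, *Amdhd1*, *Kynu*, *Cbs* and *Hal*, were also called in WT (2.87% of all genes were called in both). The number called in ΔRRE fell when some single libraries were left out. It was 2 without replicate 1 of CT2, without replicate 2 of CT2, or without either library of CT18, and 3 without replicate 2 of CT6. How many of all genes were called in those fits is not given here, so the fall cannot be read as particular to these genes. Of the joint calls, 10 held whichever single library was left out. Those of *Ahcy*, *Shmt1*, *Acmsd*, *Tdo2* and *Oat* were lost without 18, 16, 15, 14 and 2 of the 24 libraries taken one at a time. With time as a factor in place of a wave, 5 joint calls were left, those of *Amt*, *Amdhd1*, *Cbs*, *Gldc* and *Kynu*.

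**Figure D1:**
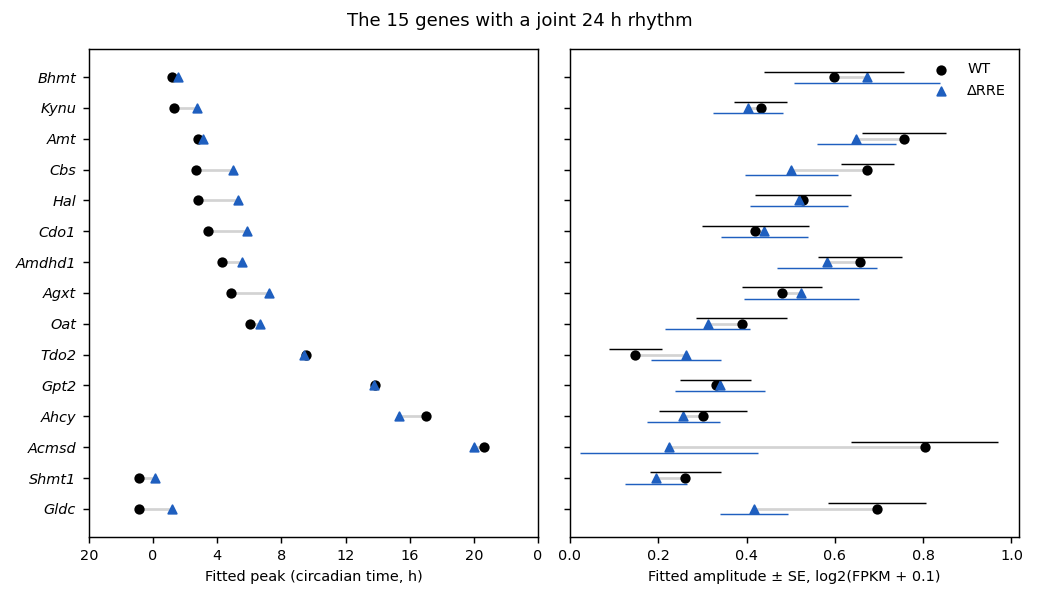
Fitted peak time in circadian hours (left) and fitted amplitude with its standard error on the log2(FPKM + 0.1) scale (right) of the 15 genes with a joint rhythm, with black circles for WT and blue triangles for ΔRRE. The ΔRRE peak is later for 11 of the 15 genes, and the widest gaps in amplitude are those of *Acmsd* (0.80 in WT and 0.22 in ΔRRE) and *Gldc* (0.70 and 0.42).

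The glycine cleavage genes among the 45, *Amt* and *Gldc*, both cycled. *Gcsh* and *Dld*, of the same system but outside the 45, were not called rhythmic (joint adjusted p of 0.339 and 0.917, limma). *Amt*, the aminomethyltransferase (T-protein) of the complex, had the largest amplitude of the rhythmic genes when both genotypes were averaged. In WT, the libraries measured 34.6 and 26.5 FPKM at CT2, 28.9 and 29.4 at CT6, 22.6 and 17.5 at CT10, 8.93 and 12.3 at CT14, 16.3 and 13.5 at CT18 and 27.5 and 26.7 at CT22, replicate 1 first. In ΔRRE they measured 30.4 and 31.9 FPKM at CT2, 27.5 and 36.4 at CT6, 24.998 and 20.3 at CT10, 14.2 and 11.6 at CT14, 18.3 and 15.4 at CT18 and 23.6 and 30.96 at CT22. In both genotypes the 2 libraries of CT14 were the lowest, and they lay below every library of CT2, CT6 and CT22. The fitted amplitude on the log2 scale was 0.76 ± 0.10 in WT and 0.65 ± 0.089 in ΔRRE, with peaks at CT2.78 and CT3.12 (limma, joint adjusted p = 6.49e-06). *Gldc*, the glycine decarboxylase (P-protein), had its trough earlier. Its WT libraries held 62.9 and 65.4 FPKM at CT2, 52.5 and 57.4 at CT6, 27.2 and 19.4 at CT10, 35.9 and 41.2 at CT14, 58.3 and 53.3 at CT18 and 75.9 and 65.5 at CT22. Its ΔRRE libraries held 69.5 and 73.6 FPKM at CT2, 53.8 and 78.4 at CT6, 45.02 and 35.01 at CT10, 42.8 and 42.6 at CT14, 50.98 and 52.3 at CT18 and 61.7 and 61.5 at CT22. CT10 had the lowest mean in both genotypes, but both ΔRRE libraries of CT10 lay above both of WT, and both ΔRRE libraries of CT18 and CT22 lay below both of WT. The amplitude was 0.70 ± 0.11 in WT and 0.42 ± 0.078 in ΔRRE (joint adjusted p = 0.000154, limma). *Shmt1*, the cytosolic serine hydroxymethyltransferase, cycled with a smaller amplitude of 0.26 ± 0.081 in WT and 0.19 ± 0.071 in ΔRRE and a common peak at CT23.5 (joint adjusted p = 0.0472, limma).

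The histidine genes *Hal* and *Amdhd1* are neighbours on chromosome 10 (GRCm38, chr10:93488768-93519304 on the plus strand and chr10:93523338-93540033 on the minus strand). *Hal* encodes histidase, the first enzyme of the route, and *Amdhd1* imidazolonepropionase, the third. For *Hal*, WT libraries gave 109 and 85.9 FPKM at CT2, 91.5 and 104 at CT6, 57.04 and 68.5 at CT10, 54.4 and 58.2 at CT14, 69.5 and 35.9 at CT18 and 98.2 and 87.3 at CT22. ΔRRE libraries gave 115 and 104 FPKM at CT2, 98.2 and 135 at CT6, 136 and 82.5 at CT10, 90.1 and 52.4 at CT14, 63.02 and 50.7 at CT18 and 80.7 and 87.4 at CT22. In WT every library of CT10 and CT14 was below every library of CT2, CT6 and CT22. In ΔRRE the replicates of CT10 and CT14 differed by a factor of more than 1.5, with replicate 1 the higher in each. The WT amplitude was 0.53 ± 0.11 with a peak at CT2.83, and the ΔRRE amplitude 0.52 ± 0.11 with a peak at CT5.28 (joint adjusted p = 0.00199, limma). For *Amdhd1*, the values were 119 and 85.9 FPKM at CT2, 93.5 and 107 at CT6, 85.6 and 81.9 at CT10, 51.7 and 45.3 at CT14, 53.1 and 35.4 at CT18 and 89.6 and 70.3 at CT22 in WT. They were 109 and 100.2 FPKM at CT2, 126 and 122 at CT6, 155 and 90.6 at CT10, 83.3 and 52.2 at CT14, 60.7 and 48.4 at CT18 and 90.2 and 86.9 at CT22 in ΔRRE. CT18 had the lowest mean in both genotypes, and the highest of all 24 was ΔRRE replicate 1 of CT10. Amplitudes were 0.66 ± 0.095 in WT and 0.58 ± 0.11 in ΔRRE, with peaks at CT4.28 and CT5.54 (joint adjusted p = 0.000163, limma). The other two histidine genes, *Uroc1* (urocanase) and *Ftcd* (formiminotransferase cyclodeaminase), had joint adjusted p of 0.311 and 0.138 (limma).

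In the methionine cycle, *Cbs* had the clearest rhythm. It encodes cystathionine β-synthase, which condenses homocysteine with serine and opens transsulfuration. The WT libraries of *Cbs* measured 239 and 209 FPKM at CT2, 226 and 191 at CT6, 139 and 131 at CT10, 80.5 and 98.5 at CT14, 121 and 108 at CT18 and 189 and 184 at CT22. Those of ΔRRE measured 218 and 238 FPKM at CT2, 223 and 286 at CT6, 267 and 199 at CT10, 191 and 105 at CT14, 116 and 139 at CT18 and 195 and 196 at CT22. WT was lowest at CT14 and no WT library of CT10, CT14 or CT18 reached the level of any library of CT2, CT6 or CT22. In ΔRRE, both libraries of CT10 were above both of CT22, and the low values came at CT18 and in replicate 2 of CT14. The fitted wave peaked at CT2.65 with an amplitude of 0.67 ± 0.061 in WT and at CT5.00 with 0.50 ± 0.11 in ΔRRE (joint adjusted p = 1.97e-05, limma). *Bhmt* peaked at CT1.19 in WT and CT1.56 in ΔRRE. Its WT values were 2133 and 1298 FPKM at CT2, 1516 and 1368 at CT6, 1121 and 1027 at CT10, 459.6 and 1099 at CT14, 1621 and 834 at CT18 and 1898 and 1702 at CT22. Its ΔRRE values were 2045 and 1628 FPKM at CT2, 884 and 2633 at CT6, 834 and 932 at CT10, 663 and 877 at CT14, 1382 and 722 at CT18 and 1876 and 1403 at CT22. CT14 had the lowest mean in both genotypes, and replicates differed most in ΔRRE at CT6, where replicate 1 lay between the CT10 libraries. *Bhmt* had amplitudes of 0.60 ± 0.16 and 0.67 ± 0.17 in WT and ΔRRE (joint adjusted p = 0.0112, limma). *Ahcy* ran in the opposite phase with a common peak at CT16.2 and amplitudes of 0.30 ± 0.10 and 0.26 ± 0.082 (joint adjusted p = 0.0493, limma). *Cth*, the second transsulfuration enzyme, had amplitudes of 0.47 ± 0.15 and 0.37 ± 0.14 but did not pass the test (joint adjusted p = 0.0862, limma), and *Mat1a*, *Gnmt* and *Bhmt2* had joint adjusted p of 0.399, 0.743 and 0.171.

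Of the kynurenine pathway, *Kynu* had a rhythm of moderate size and small spread. It encodes kynureninase, which splits kynurenine and 3-hydroxykynurenine. WT libraries of *Kynu* held 73.8 and 72.9 FPKM at CT2, 63.4 and 68.2 at CT6, 48.4 and 48.6 at CT10, 37.3 and 49.3 at CT14, 55.98 and 46.7 at CT18 and 74.4 and 76.8 at CT22. ΔRRE libraries held 86.5 and 88.9 FPKM at CT2, 66.4 and 85.7 at CT6, 75.8 and 72.9 at CT10, 53.6 and 44.4 at CT14, 53.5 and 54.8 at CT18 and 86.4 and 85.6 at CT22. Libraries of CT22 and CT2 were the highest within WT, CT14 had the lowest mean in both genotypes, and at CT2, CT10 and CT22 both ΔRRE libraries were above both of WT. Amplitudes were 0.43 ± 0.060 and 0.40 ± 0.079 in WT and ΔRRE, with peaks at CT1.29 and CT2.74 (joint adjusted p = 9.42e-05, limma). *Acmsd* encodes the decarboxylase that turns the pathway away from quinolinate and NAD synthesis. In WT it measured 17.2 and 11.7 FPKM at CT2, 16.6 and 13.2 at CT6, 7.03 and 5.48 at CT10, 12.8 and 18.9 at CT14, 27.6 and 26.4 at CT18 and 20.3 and 26.5 at CT22. In ΔRRE it measured 16.3 and 23.2 FPKM at CT2, 8.79 and 18.8 at CT6, 27.3 and 13.3 at CT10, 29.7 and 12.2 at CT14, 14.4 and 20.6 at CT18 and 20.1 and 29.7 at CT22. The WT libraries of CT10 were the lowest of all and those of CT18 and CT22 the highest within WT, while the ΔRRE replicates differed by more than 1.4 times at each time point. The amplitude was 0.80 ± 0.17 in WT and 0.22 ± 0.20 in ΔRRE, where the wave alone did not pass (adjusted p = 0.729). The joint adjusted p was 0.0477 (limma), and the difference in rhythm was not called (unadjusted p = 0.137, adjusted p = 0.9999). *Tdo2*, tryptophan dioxygenase, which catalyses the first and rate-limiting step, peaked in the late subjective day at CT9.46 with amplitudes of 0.15 ± 0.060 in WT and 0.26 ± 0.079 in ΔRRE (joint adjusted p = 0.0403, limma). *Haao*, *Afmid* and *Kmo*, the dioxygenase of 3-hydroxyanthranilate, kynurenine formamidase and kynurenine 3-monooxygenase, did not pass, with joint adjusted p from 0.0800 to 0.581.

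*Agxt*, the aminotransferase that converts glyoxylate to glycine, peaked in the subjective day. WT libraries gave 229 and 172 FPKM at CT2, 175 and 203 at CT6, 137 and 197 at CT10, 105 and 137 at CT14, 121 and 84.9 at CT18 and 134 and 146 at CT22 for *Agxt*. ΔRRE libraries gave 196 and 231 FPKM at CT2, 246 and 286 at CT6, 394 and 205 at CT10, 269.8 and 149.9 at CT14, 125 and 120.1 at CT18 and 199.6 and 159 at CT22. In WT the mean was highest at CT2, and in ΔRRE replicate 1 of CT10 was the highest of the 24 libraries. At CT6, CT10, CT14 and CT22 both ΔRRE libraries were above both of WT. The amplitudes were 0.48 ± 0.090 and 0.52 ± 0.13 (joint adjusted p = 0.00325, limma). *Cdo1*, cysteine dioxygenase, which commits cysteine to sulfinate and taurine, was abundant. It measured 820.5 and 584 FPKM at CT2, 637 and 468 at CT6, 447 and 509 at CT10, 454 and 434 at CT14, 381 and 259 at CT18 and 705 and 467 at CT22 in WT. It measured 824 and 557 FPKM at CT2, 626 and 652 at CT6, 628 and 617 at CT10, 491 and 444 at CT14, 452 and 292 at CT18 and 533 and 378 at CT22 in ΔRRE. Its mean was lowest at CT18 in both genotypes, and replicate 1 of CT2 was the highest library of each. *Cdo1* had amplitudes of 0.42 ± 0.12 and 0.44 ± 0.10 (joint adjusted p = 0.0108, limma). *Csad*, cysteine sulfinate decarboxylase, the next step towards taurine, had wider swings of 0.83 ± 0.23 and 0.57 ± 0.22 with a larger error and missed the limit (joint adjusted p = 0.0514, limma).

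Among the aminotransferases, *Oat* and *Gpt2* cycled in different phases. *Oat*, ornithine aminotransferase, is known for its expression in pericentral hepatocytes. Its WT libraries measured 678 and 436 FPKM at CT2, 716 and 525 at CT6, 630.2 and 514 at CT10, 371 and 397 at CT14, 506 and 299 at CT18 and 393 and 402 at CT22. Its ΔRRE libraries measured 570.0 and 471 FPKM at CT2, 504 and 863 at CT6, 597 and 681 at CT10, 468 and 510.0 at CT14, 394 and 391 at CT18 and 606 and 465 at CT22. The mean was highest at CT6 and next at CT10 in both genotypes, and lowest at CT14 in WT and CT18 in ΔRRE, with overlap between neighbouring times. *Oat* had amplitudes of 0.39 ± 0.10 and 0.31 ± 0.10 (joint adjusted p = 0.0215, limma). *Gpt2*, the mitochondrial alanine aminotransferase, was the only called gene with a peak between CT12 and CT16. WT libraries of *Gpt2* held 119 and 90.2 FPKM at CT2, 147 and 96.8 at CT6, 144 and 179 at CT10, 161 and 175 at CT14, 155 and 134 at CT18 and 132 and 124 at CT22. Those of ΔRRE held 124 and 105 FPKM at CT2, 77.6 and 129 at CT6, 154 and 159.8 at CT10, 183 and 158 at CT14, 162 and 111 at CT18 and 108 and 117 at CT22. In both genotypes CT10 and CT14 were high, and the lowest libraries were at CT2 in WT and at CT6 in ΔRRE. Its waves had amplitudes of 0.33 ± 0.080 and 0.34 ± 0.10 and peaks at CT13.8 and CT13.8 (joint adjusted p = 0.0151, limma).

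**Figure D2:**
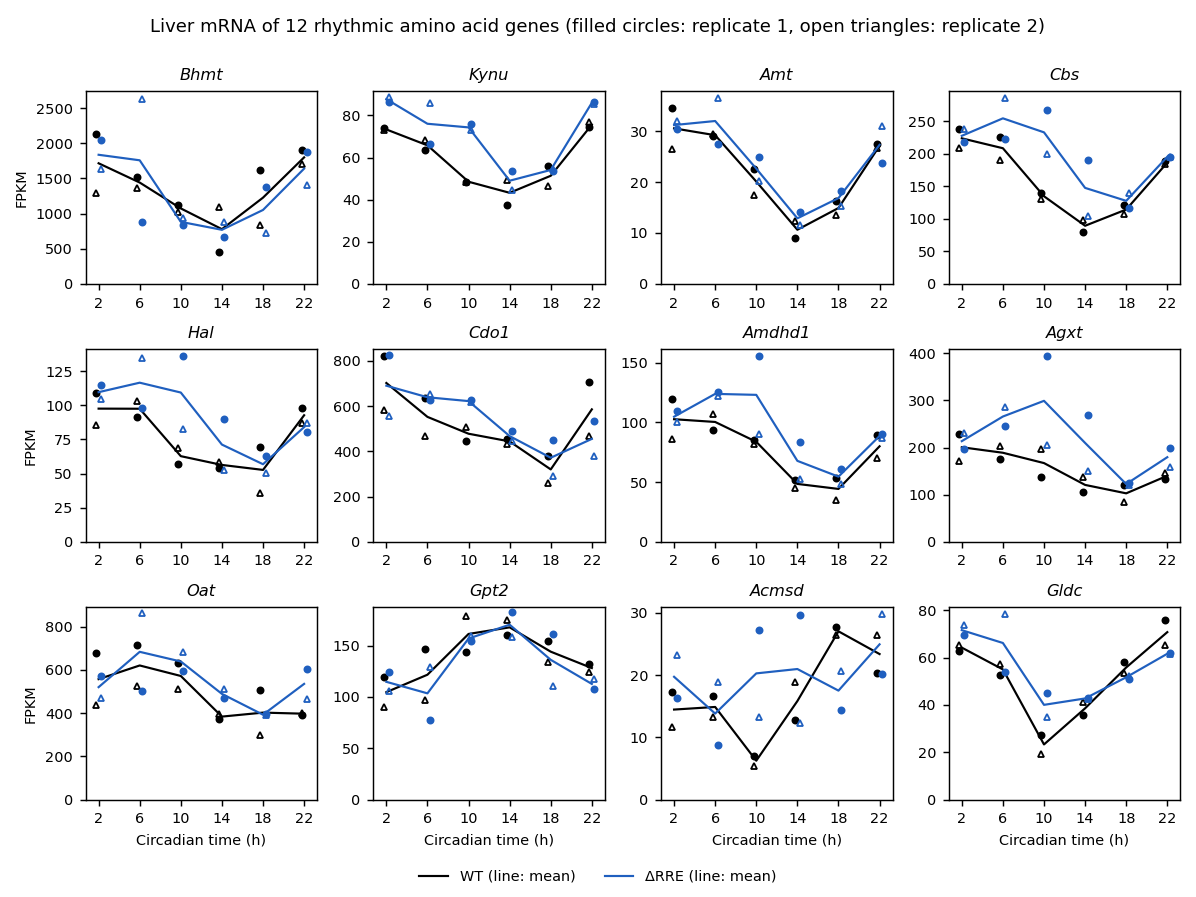
FPKM of the 12 rhythmic genes with the largest amplitudes in each library against circadian time, in order of their common peak with the genes that peak late in the subjective night last; black is WT, blue is ΔRRE, filled circles are replicate 1, open triangles replicate 2 and lines join the means of 2 libraries. Most panels fall from CT2 or CT6 to CT14 or CT18, *Gpt2* runs the other way, and at CT10 the blue points of *Cbs*, *Hal*, *Agxt*, *Acmsd* and *Gldc* lie above the black ones.

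Of the 30 genes without a joint call, most had small waves. The 7 branched-chain genes (*Bcat2*, *Bckdha*, *Bckdhb*, *Dbt*, *Ivd*, *Mccc1* and *Hibch*, which act from transamination through the branched-chain ketoacid dehydrogenase to the later steps of leucine and valine breakdown) had mean amplitudes from 0.084 to 0.19 on the log2 scale. The tyrosine genes *Hpd*, *Hgd* and *Fah* had 0.13 to 0.14, and *Dmgdh* and *Sardh*, which oxidise dimethylglycine and sarcosine, had 0.17 and 0.077. A few had wide waves with wide errors: *Sds*, serine dehydratase, had 0.24 ± 0.21 in WT and 0.97 ± 0.25 in ΔRRE (joint adjusted p = 0.0665, limma), and *Got1*, cytosolic aspartate aminotransferase, had 0.27 ± 0.22 and 0.54 ± 0.28 (joint adjusted p = 0.516). The highest time-point mean was over 1.5 times the lowest for 20 of the 45 genes in WT (48.8% of all genes) and 21 in ΔRRE (49.5%). With the 3 criteria of the study's methods (rhythm p under 0.3, here from the cosine fit, highest mean over 1.5 times the lowest, and a limit on the spread), 17 of the 45 genes qualified in WT (37.0% of all genes), 20 in ΔRRE (35.4%) and 14 in both (22.9%).

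Short stretches of 4 promoters are shown because they hold letters of clock elements named in this study's question. Of the 45 genes, 37 matched an entry of the RefSeq promoter table (GRCm38.p6, 250 bases before to 50 after each start), and both strands were searched. The E-box CACGTG was in 7.15% of all 32851 promoters and in 1 of the 37 genes, *Cbs*. The RRE core TAGGTCA was in 2.61% of all promoters and in 3 of the 37, *Bhmt*, *Tdo2* and *Aass*. The D-box TTANGTAA (2.32% of all promoters) and the CRE TGACGTCA (1.79%) were in 0 of the 37. Capitals mark the motif, which reads TGACCTA where the RRE core is on the opposite strand.
Cbs, chr17:31637417-31637446, minus strand, motif from position -229: cctcacgacaaaCACGTGttagacggcaga
Bhmt, chr13:93637975-93638004, minus strand, motif from position -235: tgtgccagatgTAGGTCAtgcagtttacac
Tdo2, chr3:81975716-81975745, minus strand, motif from position -6: gataccattccTGACCTAgcaaacctgtgt
Aass, chr6:23133095-23133124, minus strand, motif from position -127: ggggcagggcaTGACCTAgtacctggcagc
A match is a description of letters, not of a bound site. The common peaks of the 4 genes differed: CT3.65 for *Cbs*, CT1.39 for *Bhmt* and CT9.46 for *Tdo2*, while *Aass*, the first enzyme of lysine breakdown, had no called rhythm (joint adjusted p = 0.598, limma). For the remaining matched genes these letters were not in the window searched.

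None of the 45 genes passed the test of a difference in rhythm between WT and ΔRRE (limma, adjusted p under 0.05, 0.00889% of all genes called). At an unadjusted p under 0.05 there were 4, *Cbs*, *Ftcd*, *Gldc* and *Uroc1* (2.84% of all genes). Their differences were of different kinds. *Cbs* peaked 2.35 h later in ΔRRE, with an amplitude lower by 0.17 (unadjusted p = 0.0167, adjusted p = 0.9999 with limma). In the exact permutation test over all 46656 divisions of the libraries within time points, *Cbs* had a two-sided p of 0.0360. The exact p-values are unadjusted and belong to genes picked from these same data, so they are no separate support. Without ΔRRE replicate 1 of CT10 and of CT14, its peak was 1.18 h later. *Gldc* peaked at CT23.2 in WT and CT1.20 in ΔRRE, with an amplitude lower by 0.28 (unadjusted p = 0.0341, exact permutation p = 0.00857). *Ftcd* had a wave of 0.10 ± 0.067 in WT and 0.18 ± 0.054 in ΔRRE. Its WT libraries measured 202 and 184 FPKM at CT2, 149 and 195 at CT6, 152 and 167 at CT10, 175 and 169.7 at CT14, 184 and 138 at CT18 and 186 and 175 at CT22. Its ΔRRE libraries measured 194 and 199 FPKM at CT2, 205 and 199 at CT6, 229 and 186 at CT10, 216 and 196 at CT14, 169 and 169 at CT18 and 169 and 158 at CT22. The ΔRRE libraries were above those of WT at CT6, CT10 and CT14 and below them at CT22 (unadjusted p = 0.0332, exact permutation p = 0.0177). Amplitudes were lower in ΔRRE for 20 of the 45 genes (53.7% of all genes), with a median difference of 0.0093 on the log2 scale, where all genes had -0.0099.

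Peaks tended to be later in ΔRRE. Of the 15 genes with a joint rhythm, 11 peaked later in ΔRRE than in WT, by a median of 0.961 h, with differences from -1.66 h (*Ahcy*) to 2.45 h (*Hal*). Over all 2107 genes with a joint rhythm, 56.1% peaked later, with a median of 0.219 h. Without ΔRRE replicate 1 of CT10 and of CT14, the libraries with high erythroid markers, 11 of the 15 were later. The median was 0.533 h, with differences from -1.04 h (*Tdo2*) to 2.03 h (*Gldc*). Over all 2107 genes, 48.9% were then later, with a median of -0.0486 h. Of the 15, 9 were later in both cases, *Amt* and *Amdhd1* only with all libraries, and *Acmsd* and *Gpt2* only without the 2. *Hal* was then later by 1.05 h and *Agxt*, at 2.42 h with all libraries, by 0.437 h. These shifts were not tested as a group, and none of the single genes passed the adjusted test of a difference in rhythm.

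Mean levels over the 6 time points were slightly higher in ΔRRE for most of the genes. The log2 difference was above 0 for 35 of 45 (65.5% of all genes), with a median of 0.10 beside 0.04 for all genes. After rescaling the libraries by the median of ratios, which moved the median of all genes to near 0, it was above 0 for 31 of 45 (49.5% of all genes) with a median of 0.063. None of the differences passed the adjusted test (limma, 0% of all genes called). At an unadjusted p under 0.05 there were 9 genes (8.91% of all genes), each of them higher in ΔRRE (7.16% of all genes were higher and 1.75% lower): *Agxt*, *Kynu*, *Cbs*, *Sdsl*, *Amdhd1*, *Got1*, *Bcat2*, *Ftcd* and *Hgd*. After rescaling there were 6 higher (3.88% of all genes) and 0 lower (3.16%).

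The 3 widest positive differences were those of *Got1*, *Sdsl* and *Agxt*. Their exact permutation p-values are unadjusted and belong to genes picked as the widest, so they are no separate support. *Got1* varied widely between libraries. In WT, *Got1* measured 115 and 74.7 FPKM at CT2, 119.6 and 79.7 at CT6, 50.02 and 128 at CT10, 109 and 158 at CT14, 67.6 and 34.6 at CT18 and 70.8 and 99.5 at CT22. In ΔRRE, *Got1* measured 133 and 106 FPKM at CT2, 71.02 and 187 at CT6, 251 and 209 at CT10, 317 and 106 at CT14, 56.8 and 49.2 at CT18 and 163 and 126 at CT22. Both ΔRRE libraries were above both of WT at CT10 and CT22, the highest library was ΔRRE replicate 1 of CT14, and the groups overlapped at the other times. The log2 difference of *Got1* was 0.58 ± 0.22 (unadjusted p = 0.0132, adjusted p = 0.442 with limma, exact permutation p = 0.0235). *Sdsl* is a low-level gene. For *Sdsl*, WT libraries had 7.34 and 6.80 FPKM at CT2, 8.79 and 9.22 at CT6, 4.72 and 6.88 at CT10, 7.91 and 6.94 at CT14, 8.07 and 4.35 at CT18 and 6.40 and 8.21 at CT22. For *Sdsl*, ΔRRE libraries had 9.12 and 9.51 FPKM at CT2, 10.7 and 9.81 at CT6, 22.4 and 9.05 at CT10, 21.5 and 8.52 at CT14, 8.18 and 6.87 at CT18 and 8.09 and 6.87 at CT22. Replicate 1 of ΔRRE at CT10 and at CT14 was more than 2.3 times above every WT library, and the other ΔRRE libraries lay between 6.87 and 10.7 FPKM. The difference of *Sdsl* was 0.52 ± 0.17 (adjusted p = 0.395 with limma, exact permutation p = 0.00253), and 0.40 without ΔRRE replicate 1 of CT10. *Agxt*, whose libraries are given above, differed by 0.46 ± 0.12 (adjusted p = 0.332 with limma, exact permutation p = 0.000814), and by 0.38 without the same library. *Kynu* differed by 0.25 ± 0.064, *Cbs* by 0.33 ± 0.10 and *Amdhd1* by 0.30 ± 0.10, each with an adjusted p above 0.3.

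The 3 widest negative differences were small. *Dmgdh* had -0.14 ± 0.087 (exact permutation p = 0.146), *Prodh*, the proline dehydrogenase, -0.11 ± 0.12 (p = 0.409) and *Gpt2* -0.068 ± 0.091 (p = 0.478, exact permutation tests). The WT libraries of *Dmgdh* measured 185 and 154 FPKM at CT2, 195 and 139.7 at CT6, 181 and 154 at CT10, 141 and 175 at CT14, 190.0 and 153 at CT18 and 198 and 181 at CT22. The ΔRRE libraries of *Dmgdh* measured 182 and 158 FPKM at CT2, 135 and 204 at CT6, 121 and 147 at CT10, 104 and 152 at CT14, 170.2 and 144 at CT18 and 191 and 170.3 at CT22. Only at CT10 did the groups of *Dmgdh* not overlap, with both ΔRRE libraries lower. *Prodh* had 49.4 and 37.1 FPKM at CT2, 60.9 and 33.9 at CT6, 31.9 and 48.01 at CT10, 42.7 and 60.1 at CT14, 45.3 and 34.9 at CT18 and 39.1 and 42.97 at CT22 in WT. It had 37.99 and 34.5 FPKM at CT2, 31.2 and 53.3 at CT6, 41.2 and 48.3 at CT10, 48.1 and 44.7 at CT14, 54.5 and 33.5 at CT18 and 35.96 and 26.3 at CT22 in ΔRRE. The groups of *Prodh* overlapped at every time but CT22, where ΔRRE was lower.

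**Figure D3:**
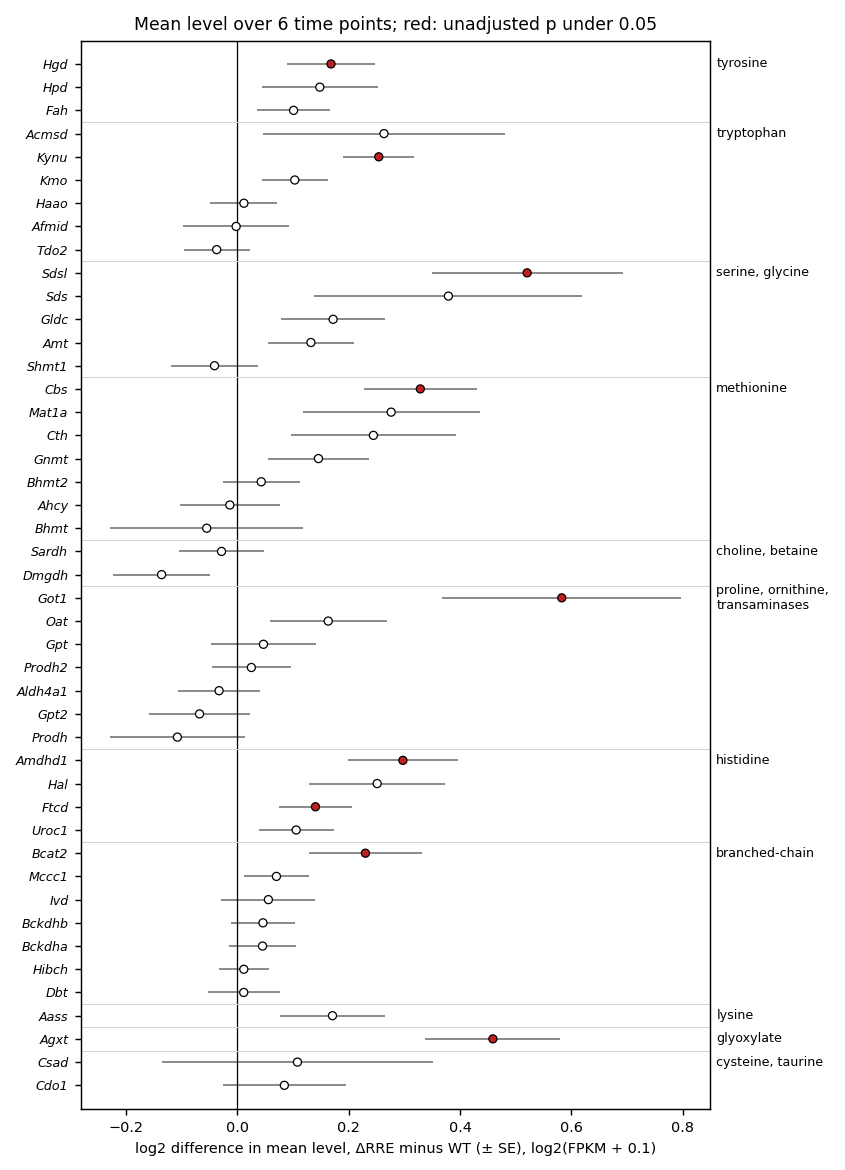
Log2 difference in mean level between ΔRRE and WT over 6 time points, with its standard error, for the 45 genes by pathway; red points have an unadjusted p under 0.05 and none has an adjusted p under 0.05. *Got1*, *Sdsl* and *Agxt* lie farthest to the right, between 0.46 and 0.58, and *Dmgdh* farthest to the left at -0.14.

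With all libraries, the median difference between the genotypes was widest at CT10. Without ΔRRE replicate 1 of CT10 it was 0.14 there, below the 0.17 of CT14. The CT14 value kept ΔRRE replicate 1 of CT14, the other library with high erythroid markers, and was not recomputed without it. This comparison of single time points was chosen after the values had been seen. At CT10 both ΔRRE libraries were above both WT libraries for 23 of the 45 genes (17.4% of all genes), and below them for 2, *Bhmt* and *Dmgdh* (15.4% of all genes). Genes from most pathways were among the 23: *Sds*, *Sdsl* and *Gldc*, *Cbs*, *Cth*, *Mat1a*, *Gnmt* and *Bhmt2*, *Acmsd*, *Kynu* and *Kmo*, *Hal*, *Amdhd1*, *Ftcd* and *Uroc1*, *Got1*, *Agxt*, *Cdo1*, *Aass*, *Hgd*, *Ivd*, *Bckdhb* and *Mccc1*. The median log2 difference of the 45 genes was 0.30 at CT10, beside 0.0042 for all genes, and it was 0.026 at CT2, 0.11 at CT6, 0.17 at CT14, 0.020 at CT18 and 0.025 at CT22. The counts above and below were 5 and 3 at CT2 (18.6% and 10.9% of all genes), 9 and 0 at CT6 (16.2% and 11.8%), 9 and 1 at CT14 (17.4% and 10.9%), 2 and 3 at CT18 (24.5% and 6.72%) and 10 and 11 at CT22 (21.7% and 15.4%).

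The largest difference at CT10 was that of *Sds*. This enzyme turns serine into pyruvate and is known for its induction by fasting and glucagon. In WT, *Sds* measured 171 and 100.4 FPKM at CT2, 191 and 137 at CT6, 90.2 and 181 at CT10, 229 and 255 at CT14, 154 and 62.9 at CT18 and 131 and 144 at CT22. In ΔRRE, *Sds* measured 119 and 117 FPKM at CT2, 125 and 294 at CT6, 508 and 339 at CT10, 642 and 186 at CT14, 121 and 75.5 at CT18 and 177 and 108 at CT22. At CT10 both ΔRRE libraries were above both of WT, by 1.70 ± 0.55 on the log2 scale, while at CT14 only replicate 1 was and at the other times the groups overlapped. *Acmsd* differed by 1.60 ± 0.43, *Got1* by 1.52 ± 0.53, *Sdsl* by 1.31 ± 0.40, *Mat1a* by 0.84 ± 0.41, *Agxt* by 0.79 ± 0.31, *Gldc* by 0.79 ± 0.18 and *Cbs* by 0.77 ± 0.22 at CT10. No gene of the 45 passed an adjusted p under 0.05 there (limma with 12 group means, 0.0178% of all genes called, lowest adjusted p 0.306 for *Gldc*). At an unadjusted p under 0.05, 13 were higher in ΔRRE (3.52% of all genes) and 0 lower (2.64%).

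The CT10 count depended on single libraries. Without ΔRRE replicate 1 of CT10, the library with high erythroid and periportal markers, the 1 remaining ΔRRE library was above both of WT for 27 genes (35.5% of all genes), the median difference fell to 0.14, and an unadjusted p under 0.05 was left for 3 genes (2.65% of all genes). Without ΔRRE replicate 2 of CT10 the numbers were 35 genes (31.3%), 0.35 and 17 genes (3.45%). Leaving out WT replicate 1 gave 30 genes (38.6%), 0.29 and 4 genes (4.81%), and leaving out WT replicate 2 gave 33 genes (31.1%), 0.44 and 14 genes (3.03%). A lone library was taken to vary like the other groups in these fits. Erythroid marker sums at CT10 were 708 and 1395 FPKM in WT and 4322 and 1270 FPKM in ΔRRE. Sums of the 4 periportal markers that are not among the 45 genes were 836 and 880.1 FPKM in WT and 1127 and 866 FPKM in ΔRRE. Those of 6 such pericentral markers were 4911 and 5269 FPKM in WT and 3438 and 5285 FPKM in ΔRRE. The part of these differences in the CT10 result was not tested.

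**Figure D4:**
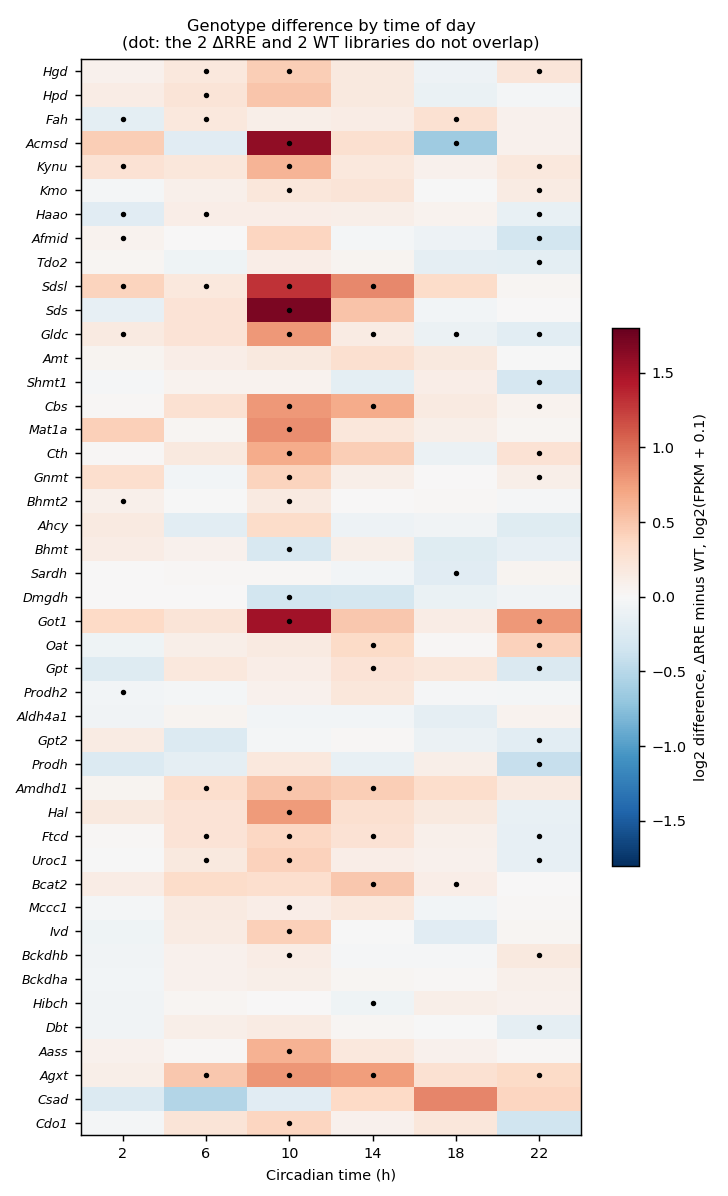
Log2 difference between the means of the ΔRRE and WT libraries at each circadian time for the 45 genes, by pathway, red where ΔRRE is higher and blue where it is lower; dots mark groups that do not overlap. The CT10 column holds 25 dots, 23 of them in red cells, with the darkest cells at *Sds* (1.70), *Acmsd* (1.60), *Got1* (1.52) and *Sdsl* (1.31).

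*Sds* and *Sdsl* lie next to each other on chromosome 5 (chr5:120476526-120483932, plus strand, and chr5:120458186-120472810, minus strand), 3715 bases apart, and shared no stretch of 31 bases between their transcripts. Both were above WT in both ΔRRE libraries at CT10. *Bhmt* and *Bhmt2* lie in a row on chromosome 13 (chr13:93616675-93637961 and chr13:93655720-93674302, both on the minus strand) and shared 40 stretches of 31 bases, so some reads could have been counted for either. *Bhmt* cycled, while *Bhmt2*, which methylates homocysteine with S-methylmethionine, had amplitudes of 0.18 ± 0.068 and 0.15 ± 0.074 (joint adjusted p = 0.171, limma). WT libraries of *Bhmt2* had 88.8 and 80.96 FPKM at CT2, 87.1 and 73.3 at CT6, 61.6 and 69.6 at CT10, 60.3 and 86.1 at CT14, 87.99 and 82.9 at CT18 and 80.9 and 88.6 at CT22. ΔRRE libraries of *Bhmt2* had 92.01 and 89.4 FPKM at CT2, 64.1 and 97.9 at CT6, 77.2 and 69.8 at CT10, 68.96 and 76.7 at CT14, 97.5 and 76.9 at CT18 and 81.7 and 84.6 at CT22. At CT10, the ΔRRE libraries of *Bhmt2* were narrowly above those of WT and the ΔRRE libraries of *Bhmt* below. *Gpt*, the cytosolic alanine aminotransferase, did not follow *Gpt2*. It had 199.7 and 113 FPKM at CT2, 163 and 141 at CT6, 138 and 159 at CT10, 140.1 and 157 at CT14, 154 and 113 at CT18 and 136 and 143 at CT22 in WT. It had 116 and 140.3 FPKM at CT2, 159 and 188 at CT6, 170.0 and 153 at CT10, 188 and 165 at CT14, 177 and 131 at CT18 and 131 and 104 at CT22 in ΔRRE. The amplitude of *Gpt* was 0.085 ± 0.090 in WT and 0.28 ± 0.080 in ΔRRE (joint adjusted p = 0.164, limma). *Prodh2*, which oxidises hydroxyproline, had 104 and 106 FPKM at CT2, 68.2 and 85.8 at CT6, 69.3 and 97.3 at CT10, 103 and 88.6 at CT14, 108 and 96.1 at CT18 and 93.6 and 80.9 at CT22 in WT. In ΔRRE it had 100.3 and 104 FPKM at CT2, 77.6 and 72.4 at CT6, 103 and 72.2 at CT10, 119 and 100.3 at CT14, 111 and 91.7 at CT18 and 78.03 and 93.1 at CT22. Neither *Prodh* nor *Prodh2* was called rhythmic, with joint adjusted p of 0.516 and 0.436 (limma), and their mean levels, per length, were 42.3 and 92.7 FPKM. Exons of *Afmid* share 1566 bases with *Gm20708* on the same strand, which had a mean of 58.3 FPKM, so that their reads could not be told apart by strand. Exons of *Bcat2*, *Csad* and *Sds*, among others, also overlap those of another gene, and whether strand was used in the authors' quantification is not given in the sources used here.

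Of 61 further genes of the same pathways that were tested, 14 (23.0%) had a joint rhythm (18.7% of all genes). In WT 11 were called (10.3% of all genes), and in ΔRRE 2 (4.57% of all genes). *Ethe1*, the mitochondrial persulfide dioxygenase of cysteine breakdown, had amplitudes of 0.82 ± 0.11 in WT and 0.87 ± 0.13 in ΔRRE and a common peak at CT1.69. *Ppm1k*, the phosphatase that activates the branched-chain ketoacid dehydrogenase, had 0.49 ± 0.11 and 0.62 ± 0.17 and peaked at CT4.05. *Tat*, tyrosine aminotransferase, had 0.56 ± 0.16 and 0.70 ± 0.16, with a peak at CT17.9 in WT and CT13.8 in ΔRRE (difference in rhythm, unadjusted p = 0.0467, adjusted p = 0.9999, limma). *Mtrr*, which keeps methionine synthase active, peaked at CT16.5, and *Mat2b*, the regulatory subunit of the extrahepatic methionine adenosyltransferase, at CT7.61. At CT10, 21 of the 61 genes (34.4%) had both ΔRRE libraries above both of WT (17.4% of all genes).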

How the data were processed

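RNA-seq of 24 liver libraries was used. The authors trimmed reads with Trimmomatic 0.39, aligned them with HISAT2 2.1.0 to mm10 and quantified genes with StringTie 1.3.5 (submitters' processing notes), and deposited FPKM values per gene. The deposited FPKM keep no read numbers, so depth per library is unknown and no counting intervals are given. The 11244 genes averaging 1 FPKM or more were tested on log2(FPKM + 0.1) with limma 3.58.1 (R 4.3.3) and Benjamini-Hochberg adjustment over all tested genes at 0.05. For the joint and difference tests, a cosine and a sine term of 24 h per genotype were fitted to all 24 libraries in 1 fit. Rhythm within a genotype, with its amplitude and standard error, was fitted to the 12 libraries of that genotype. The joint test takes the rhythm terms of both genotypes, and the difference test their difference. The level test takes the genotype means, with time point as a factor and no wave. This harmonic regression was used in place of BIO_CYCLE, which was not run. Single genes were also tested by exact two-sided permutation within time points. These genes were picked by their differences in the same data, and the exact p-values were not adjusted for that choice. On simulated data with 11244 genes, 77.5% of genes with an amplitude of 0.5 were recovered in the joint test, 61.5% of genes with a level difference of 0.5, and 79% of genes with an amplitude of 1 in only one genotype in the difference test. Genes named with values were the 12 with the largest mean amplitude among those with a joint call, the 3 largest level differences in each direction, the 3 smallest p for a difference in rhythm, and 4 pairs of related enzymes. Further genes are named where they fell in a count of few, or after their values were seen. The genes, lists and tests were chosen with earlier results of these data known. The single time points, the peaks without 2 libraries, the marker sums at CT10 and the promoter letters were chosen after the values were seen. So was the window from CT20 to CT8. Alternatives were other scalings, pseudocounts, filters and models, leaving out each library, and a replicate block. A table of the whole series was not used, since its columns equal the per-library files. Python 3.11.15, NumPy 2.4.6, pandas 2.3.3 and matplotlib 3.10.9 were used. One item is not reported here.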

Additional observations from a re-analysis of the deposited data

Results flagged for a closer look

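For 8 of the 45 genes (17.8%, beside 33.0% of all genes tested), both ΔRRE libraries lay above both WT libraries at one time point and below them at another. The gap between the 2 log2 differences was 2.25 for *Acmsd* (1.60 at CT10 and -0.65 at CT18), 0.98 for *Gldc* (0.79 at CT10 and -0.20 at CT22), 0.56 for *Uroc1* (0.41 at CT10 and -0.15 at CT22) and 0.52 for *Ftcd* (0.37 at CT10 and -0.14 at CT22). It was 0.51 for *Gpt* (0.25 at CT14 and -0.26 at CT22), 0.45 for *Fah* (0.28 at CT18 and -0.17 at CT2), 0.39 for *Afmid* (0.059 at CT2 and -0.33 at CT22) and 0.33 for *Haao* (0.13 at CT6 and -0.21 at CT2). The opposite directions themselves were not tested. The test of a difference in rhythm gave an adjusted p of 0.9999 for each (limma), with unadjusted p of 0.0341 for *Gldc*, 0.0438 for *Uroc1*, 0.0332 for *Ftcd*, 0.137 for *Acmsd* and more than 0.1 for the others. Dixon's test for single outlying libraries was not run, since it needs more than the 2 libraries of each group.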

How the results depend on the processing

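Of 558 values of single genes recomputed under other settings, 536 kept their direction and their side of the threshold, and none reversed. They cover the joint rhythms of 12 genes and the 3 largest level differences in each direction. None of those level differences had passed at first, so they had no call to lose. The fit with time as a factor, which ended most joint calls, is not among these values. Also left out are *Ahcy*, *Shmt1* and *Tdo2*, whose joint calls were lost without 18, 16 and 14 of the 24 libraries. Without the filter on low values, 5 genes were called in WT and 1 in ΔRRE. With a prior variance without trend, 3 were called in ΔRRE. With time as a factor in place of a wave, 2 were called in ΔRRE and 5 jointly, without *Acmsd*, *Agxt*, *Ahcy*, *Bhmt*, *Cdo1*, *Gpt2*, *Hal*, *Oat*, *Shmt1* and *Tdo2*. The causes were not tested. Apart from the CT10 count, shares over all genes are not given for the settings in this section. With a replicate block, 11 genes were called in WT, 7 in ΔRRE, 14 jointly (*Acmsd* had an adjusted p of 0.0540) and 0 for a difference in rhythm or level. The labels do not say whether libraries with the same replicate number belong together, and the main fits did not pair them. Of 66 pairs of groups, 20 had a correlation of replicate deviations over 0.1 (from -0.14 to 0.30, median 0.067). A shared batch of a replicate number was not tested. After rescaling by the median of ratios, 8 genes were called in WT, 7 in ΔRRE and 12 jointly, without *Oat*, *Shmt1* and *Tdo2*. Leaving out each library in turn gave 7 to 10 genes in WT, 2 to 6 in ΔRRE, 11 to 15 jointly and 0 for a difference in rhythm or level. The count with ΔRRE above WT at CT10 was 20 after rescaling (17.2% of all genes), and 27 to 35 without each of the 4 CT10 libraries in turn (31.1% to 38.6% of all genes), where a lone library is set against 2. By the study's criteria it gave 17 to 18 in WT and 19 to 24 in ΔRRE, with a median level difference of 0.079 to 0.12 and a median amplitude difference of -0.016 to 0.023. Depth is not known, and 2 libraries per group limit each time point.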
